A study of Mus musculus with 10 samples.

Results

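Alpha and beta tubulin are the subunits of the microtubule, and the mouse genome encodes each of them in several near-identical forms, the isotypes. Described here are 10 isotype genes, 4 alpha (Tuba1a, Tuba1b, Tuba1c and Tuba4a) and 6 beta (Tubb2a, Tubb2b, Tubb3, Tubb4b, Tubb5 and Tubb6), out of 54532 genes in the count table. They were taken by gene name, and each was found as a single entry. All 10 had enough reads to be tested, and 14360 genes were tested in all.

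The study compared cultured primary lung fibroblasts of wild-type mice (5 libraries) with the same kind of culture labelled as knockout of Mrc2 (5 libraries), the gene of an endocytic receptor for collagen. Both groups were kept unstimulated in DMEM with 10% fetal bovine serum, carried the same batch label and were sequenced as poly(A)-selected RNA on an Illumina NovaSeq instrument. The title of the series names the question of how loss of the receptor bears on fibroblast proliferation. The sources used here give neither strain, age, Mrc2 allele nor passage number, and do not say whether each culture came from its own animal. Sample titles call the libraries biological replicates. Each p-value therefore sets the difference between genotypes against the spread between these samples only.

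Alpha and beta tubulin fold with the help of the prefoldin and CCT chaperones, join into heterodimers with the help of tubulin cofactors, and assemble head to tail into microtubules, which carry cargo, shape the cell and form the mitotic spindle. Isotypes differ chiefly in their acidic C-terminal tails, where enzymes add and remove glutamate, glycine and tyrosine. Cells also tune tubulin mRNA to the amount of free dimer: the factor TTC5 recognises the first residues of a nascent tubulin on the ribosome and triggers decay of the mRNA. In fibroblasts, class I beta tubulin (Tubb5) is the general form, class III (Tubb3) is best known from neurons, class IVb (Tubb4b) is abundant in cilia, and class V (Tubb6) is widely expressed.

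The coding sequence at the tail is shown for 6 isotypes because the tail is where isotypes chiefly differ, though not in every pair. These are the last 60 coding bases before the stop codon, 5′ to 3′ on the coding strand, from the GENCODE M21 transcripts (GRCm38, the assembly of mm10), with every in-frame glutamate codon in capitals.
Tuba4a: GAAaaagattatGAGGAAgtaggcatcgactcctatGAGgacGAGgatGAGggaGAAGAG
Tubb2a: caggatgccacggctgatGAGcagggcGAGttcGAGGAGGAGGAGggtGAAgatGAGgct
Tubb2b: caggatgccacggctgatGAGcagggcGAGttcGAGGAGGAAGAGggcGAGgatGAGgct
Tubb3: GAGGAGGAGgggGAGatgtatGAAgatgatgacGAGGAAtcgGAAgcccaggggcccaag
Tubb4b: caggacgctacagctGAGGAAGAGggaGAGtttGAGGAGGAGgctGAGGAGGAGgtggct
Tubb5: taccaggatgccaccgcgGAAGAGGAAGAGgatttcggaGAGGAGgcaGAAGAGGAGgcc
Each stretch lies in exon 4 of 4. Those of Tubb2a and Tubb2b differ only between codons for the same residue, so the tail residues do not set this pair apart. The 20 codons hold 8 glutamate codons in Tuba4a, and among the beta genes 10 in Tubb4b, 9 in Tubb5 and 8 in Tubb2a, Tubb2b, Tubb3 and Tubb6.

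The other end of the coding sequence, which encodes the residues read in tubulin mRNA decay, differs between isotypes in the codons used. The first 12 coding bases are shown with the codons after the start codon in capitals.
Tuba1a, Tuba1b and Tuba1c: atgCGTGAGTGC
Tuba4a: atgCGCGAGTGC
Tubb2a: atgCGCGAGATC
Tubb2b: atgCGAGAGATC
Tubb3 and Tubb4b: atgAGGGAGATC
Tubb5: atgAGGGAAATC
There were 2 forms among the 4 alpha genes and 4 among the 5 beta genes printed. In these genes the fourth codon was TGC in the alpha and ATC in the beta family.

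This closeness bears on how reads are shared out. The coding sequences of Tuba1a and Tuba1b were 98.3% identical, those of Tuba1b and Tuba1c 97.9%, and those of Tubb2a and Tubb2b 96.5%, while the next pair, Tubb3 and Tubb6, was at 85.9%. Of all windows of 50 bases in the reference transcript, 64.6% in Tuba1b, 59.8% in Tuba1c, 52.0% in Tuba1a, 45.6% in Tubb2a and 33.4% in Tubb2b occurred letter for letter in another of the 10 genes. In Tuba4a, Tubb3, Tubb4b and Tubb6 the number of such windows was 0, and in Tubb5 it was 1. How reads that match several genes were counted is not given in the sources used here, so the split among Tuba1a, Tuba1b and Tuba1c, and between Tubb2a and Tubb2b, is uncertain. Had such reads been left out, the levels of these genes would also be too low against those of the other members. Their rank, the shares in each family and the ratio of beta to alpha tubulin carry the same limit. The annotated gene Gm49450 overlaps 3715 bases of Tuba1a and 2429 bases of Tuba1b on the same strand. It had 70 counts over the 10 libraries, and reads lost to this overlap would add to the uncertainty. Tubulin pseudogenes named as such took 5 to 15 reads per library in all.

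The libraries held 19603933 to 29944615 assigned reads, so that 3 counts equal 0.1002 to 0.153 CPM (reads scaled to a common library size). Mrc2 itself was at 1027, 952, 874, 795 and 568 CPM in wild-type replicates 1 to 5 and at 206 to 282 CPM in the knockout libraries (log2 fold change -1.80 ± 0.17 SE, adjusted p = 0.0029 by edgeR). The groups did not overlap, and all 10 libraries went with their labels. The 10 fibroblast markers summed to 15803 to 27635 CPM in wild type and 22651 to 40520 CPM in knockout, with Col1a1 at 5339 CPM or more in every library but Lum (1.82 to 48.9 CPM) and S100a4 (3.89 to 14.6 CPM) low. Smooth muscle genes were also expressed (Acta2 at 2818 to 9809.5 CPM), and leukocyte genes summed to 2443 to 11927 CPM in wild type and 2936 to 6477 CPM in knockout, most of it Lyz2. Knockout replicate 5, whose library name does not run on from those of the other 4, stood apart from them in the slope of expression on gene length, at -0.16 against 0.06 to 0.14 (log2 CPM relative to the gene's mean over libraries, per unit of log2 gene length); the wild-type slopes ran from -0.15 to 0.09.

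None of the tubulin isotypes passed the test between genotypes. By edgeR's quasi-likelihood test 0 of the 10 genes were called at an adjusted p under 0.05 (0.0139% of all tested genes were), and 1 had an unadjusted p under 0.05 (13.3% of all genes). DESeq2 also called 0 of them (1.69% of all genes with an adjusted p), as did limma-voom (0.00696%). The groups overlapped for all 10 genes, where 2.05% of all tested genes had no overlap. Log2 fold changes (knockout minus wild type) were below 0 for all 4 alpha genes, with a median of -0.18, and above 0 for 5 of the 6 beta genes, with a median of 0.06. Over all tested genes 51.6% were below and 48.4% above 0, with a median of -0.01.

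**Figure D1:**
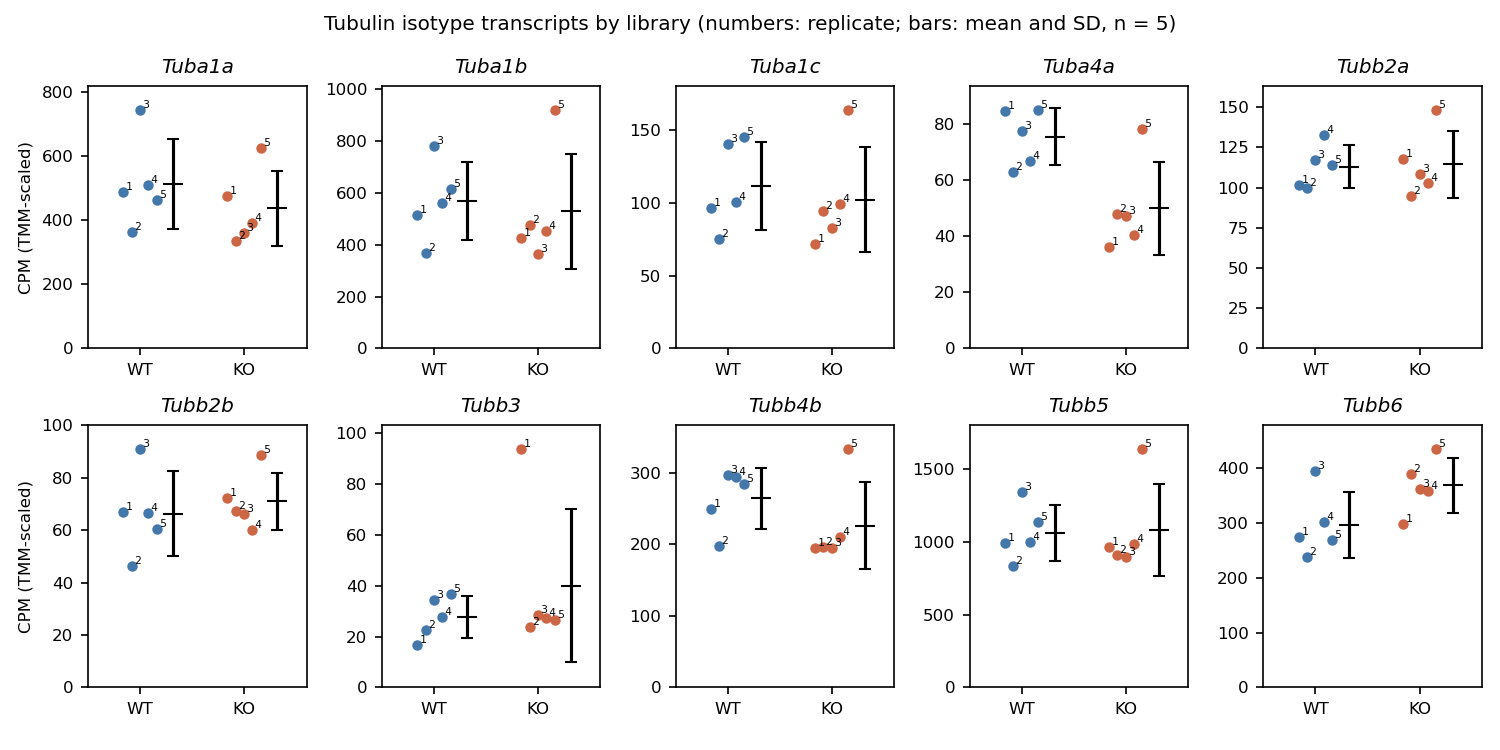
Level of each tubulin isotype in CPM (vertical axis, from 0) in 5 wild-type (WT) and 5 Mrc2 knockout (KO) libraries, with replicate numbers beside the points and the mean and SD of each group. Knockout replicate 5 is the highest knockout library for 9 of the 10 genes, and knockout replicate 1 is the highest for Tubb3.

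Set per kilobase of gene length, so that genes can be compared, the isotypes spanned a wide range. The level averaged 322 ± 73.8 CPM per kilobase for Tubb5 over the 10 libraries (SD), 292 ± 96.2 for Tuba1b and 263 ± 71.1 for Tuba1a. Tubb6 followed at 189 ± 36.8 CPM per kilobase, Tubb4b at 117 ± 25.5, Tubb2a at 70.7 ± 10.2 and Tuba1c at 46.8 ± 13.9. The lowest were Tubb2b at 29.9 ± 5.76, Tubb3 at 18.1 ± 11.7 and Tuba4a at 16.9 ± 5.04 CPM per kilobase. Between neighbours in this order the ranges overlapped, except between Tubb4b and Tubb2a. Within single libraries, by this gene length, the order was firmer. Tubb6 lay above Tubb4b, and Tubb4b above Tubb2a, in 10 of 10 libraries, whereas Tubb3 lay above Tuba4a in 3 of 10. The place of Tubb6 above Tubb4b depended on the length used. By the lengths of the reference transcripts, Tubb6 made up 17.4 to 21.4% of beta tubulin in wild type and Tubb4b 17.7 to 21.4%. The order of the Tubb3 and Tuba4a means depended on the length too. Tuba4a has a gene length of 3701 bases but a reference transcript of 2840, and Tubb3 has 1868 in both. The Tubb3 mean also held knockout replicate 1, at 50.2 CPM per kilobase. Tuba1b lay above Tuba1a in 7 of 10, a pair whose reads are hard to tell apart.

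Of the alpha genes, Tuba4a showed the widest gap between genotypes. This minor isotype (ENSMUSG00000026202; mm10 chromosome 1, 75214228 to 75219865, minus strand) is known from muscle, platelets and brain, and its coding sequence ends in glutamate codons, as the sequence above shows. Wild-type replicates 1 to 5 were at 84.8, 62.9, 77.5, 66.9 and 85.0 CPM, and knockout replicates 1 to 5 at 36.0, 48.0, 47.1, 40.5 and 78.3 CPM. The first 4 knockout libraries lay below every wild-type library, and knockout replicate 5 lay inside the wild-type range. The group values were 75.4 ± 10.2 and 49.99 ± 16.6 CPM (SD, n = 5 each), or 0.663-fold, with a log2 fold change of -0.59 (SE 0.19, edgeR unadjusted p = 0.0105, adjusted p = 0.305). With knockout replicate 5 left out the log2 fold change was -0.82 and the edgeR adjusted p = 0.0329, in a fit that called 1.39% of all genes. DESeq2 on the same 9 libraries gave an adjusted p of 9.8e-06 and called 17.1% of all genes. Leaving it out removes the highest knockout value of the gene.

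The 3' part of Tuba4a overlaps 1379 bases of Stk16, a kinase gene on the opposite strand that was itself expressed, and whether reads were counted by strand is not stated. Stk16 was at 48.2 ± 6.53 CPM in the wild-type group against 42.7 ± 7.08 CPM in the knockout group (SD over 5 libraries each; log2 fold change -0.18 ± 0.14 SE, adjusted p = 0.551 by edgeR). In Stk16, too, knockout replicate 5 was the highest knockout library, at 55.2 CPM against 38.6 to 41.2 CPM in the other 4. With the length slope of each library as a covariate the log2 fold change of Tuba4a was -0.39 (edgeR adjusted p = 0.186).

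The abundant alpha isotypes did not separate. Tuba1b, the alpha tubulin of most dividing cells (ENSMUSG00000023004; chromosome 15, 98931425 to 98934565, minus strand), was at 513, 369, 780, 559 and 615 CPM in wild-type replicates 1 to 5. In knockout replicates 1 to 5 it was at 427, 477, 363, 452 and 919 CPM. Apart from knockout replicate 5, which was the highest of all 10 libraries, the knockout values lay in the lower part of the wild-type range or, in replicate 3, just under it. The log2 fold change was -0.10 (SE 0.26, edgeR adjusted p = 0.869), and its sign turned to 0.04 without wild-type replicate 3 and to 0.00 without knockout replicate 3.

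Tuba1a, the main alpha tubulin of developing neurons (ENSMUSG00000072235; chromosome 15, 98949837 to 98953703, minus strand), ran from 362 to 743 CPM in wild type and from 335 to 624 CPM in knockout. Its log2 fold change was -0.23 (SE 0.21, edgeR adjusted p = 0.621). Tuba1c (ENSMUSG00000043091; chromosome 15, 99029891 to 99038110, plus strand) ran from 75.1 to 146 CPM and from 71.5 to 164 CPM, with a log2 fold change of -0.13 (standard error 0.24; in edgeR, adjusted p = 0.816). These 3 genes lie side by side on chromosome 15, with gaps of 15271 bases between Tuba1b and Tuba1a and 76187 bases between Tuba1a and Tuba1c. In each of them 4 of 5 knockout libraries lay below the wild-type mean and knockout replicate 5 above it. With the length slope as a covariate their log2 fold changes turned to 0.01 for Tuba1a, 0.21 for Tuba1b and 0.19 for Tuba1c.

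Among the beta genes, Tubb6 was the one with every knockout library above the wild-type mean. Class V beta tubulin (ENSMUSG00000001473; chromosome 18, 67390717 to 67402748, plus strand) is broadly expressed, and in cultured hamster cells its overproduction is known to disrupt microtubules. Wild-type replicates 1 to 5 were at 275, 238, 396, 302 and 269 CPM, and knockout replicates 1 to 5 at 298, 390, 361, 359 and 435 CPM. Wild-type replicates 3 and 4 lay above the lowest knockout library, knockout replicates 1 to 4 lay inside the wild-type range, and knockout replicate 5 lay above it, so the groups overlapped. The means were 296 ± 60.1 and 369 ± 50.04 CPM (SD, n = 5 each), with a log2 fold change of 0.32 (SE 0.15, edgeR unadjusted p = 0.0588, adjusted p = 0.391). Over the alternatives tried the log2 fold change stayed between 0.24 and 0.48, with adjusted p-values of 0.149 to 0.634.

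Tubb4b, class IVb beta tubulin (ENSMUSG00000036752; chromosome 2, 25222160 to 25224702, minus strand), was at 249, 197, 297, 294 and 284 CPM in wild-type replicates 1 to 5 and at 195, 196, 194, 211 and 333 CPM in knockout replicates 1 to 5. Knockout replicates 1 to 4 sat close together at the low end of the wild-type range, 3 of them just below it, and knockout replicate 5 was the highest of all 10 libraries. The log2 fold change was -0.23 (SE 0.18, edgeR adjusted p = 0.558). Without knockout replicate 5, which removes the highest value of the gene, the log2 fold change was -0.41, with an adjusted p of 0.0764 by edgeR and 0.0314 by DESeq2. On these 9 libraries edgeR called 1.39% of all genes and DESeq2 17.1%, and the DESeq2 fit was chosen after seeing the data. With the length slope as a covariate the log2 fold change was -0.03.

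Tubb5, the isotype with the highest level per kilobase as counted (ENSMUSG00000001525; chromosome 17, 35833921 to 35838306, minus strand), differed by less than the spread between libraries. It was at 991, 837, 1345, 1000.3 and 1139 CPM in wild-type replicates 1 to 5 and at 966, 912, 897, 988 and 1640.1 CPM in knockout replicates 1 to 5. The group means were 1062 ± 191 and 1081 ± 315 CPM (SD, n = 5 each), with a log2 fold change of 0.02 (standard error 0.20; in edgeR, adjusted p = 0.960). Its sign turned in 6 of 20 alternatives, with values from -0.18 to 0.25.

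The fold change of Tubb3 rested on 1 library. Class III beta tubulin (ENSMUSG00000062380; chromosome 8, 123411424 to 123422015, plus strand) was at 16.8, 22.6, 34.3, 27.7 and 36.8 CPM in wild-type replicates 1 to 5. Knockout replicate 1 was at 93.8 CPM and replicates 2 to 5 were at 23.7, 28.6, 27.4 and 26.7 CPM, all within the wild-type range. The log2 fold change of 0.54 (standard error 0.39; in edgeR, adjusted p = 0.524) was -0.06 without knockout replicate 1. Tubb3 also marks neurons, and the 12 neuronal genes of the list summed to 13.0 CPM in knockout replicate 1, against 10.6 to 19.1 CPM in wild type and 11.1 to 14.3 CPM in knockout. Most of that sum was Syn1 (8.14 to 16.8 CPM), followed by Map2 (0.56 to 2.33 CPM), while 6 of the 12 genes had at most 3 counts in every library, Rbfox3 and Snap25 among them, and Dcx had 0. The part of such cells in the Tubb3 level was not tested. An annotated gene that spans Tubb3 on the same strand had 0 counts. How reads that fall in both genes were counted is not given, so this does not show that the Tubb3 counts are complete.

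The class II genes Tubb2a and Tubb2b, which lie 48740 bases apart on chromosome 13 and share much of their sequence, overlapped widely between genotypes. Tubb2a (ENSMUSG00000058672; 34074274 to 34078007, minus strand) ran from 99.9 to 132 CPM in wild type and from 94.8 to 148 CPM in knockout, with a log2 fold change of 0.02 (standard error 0.13; in edgeR, adjusted p = 0.959). Tubb2b (ENSMUSG00000045136; 34126748 to 34130466, minus strand) ran from 46.3 to 91.1 CPM and from 60.2 to 88.8 CPM, with a log2 fold change of 0.10 (standard error 0.17; in edgeR, adjusted p = 0.789).

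**Figure D2:**
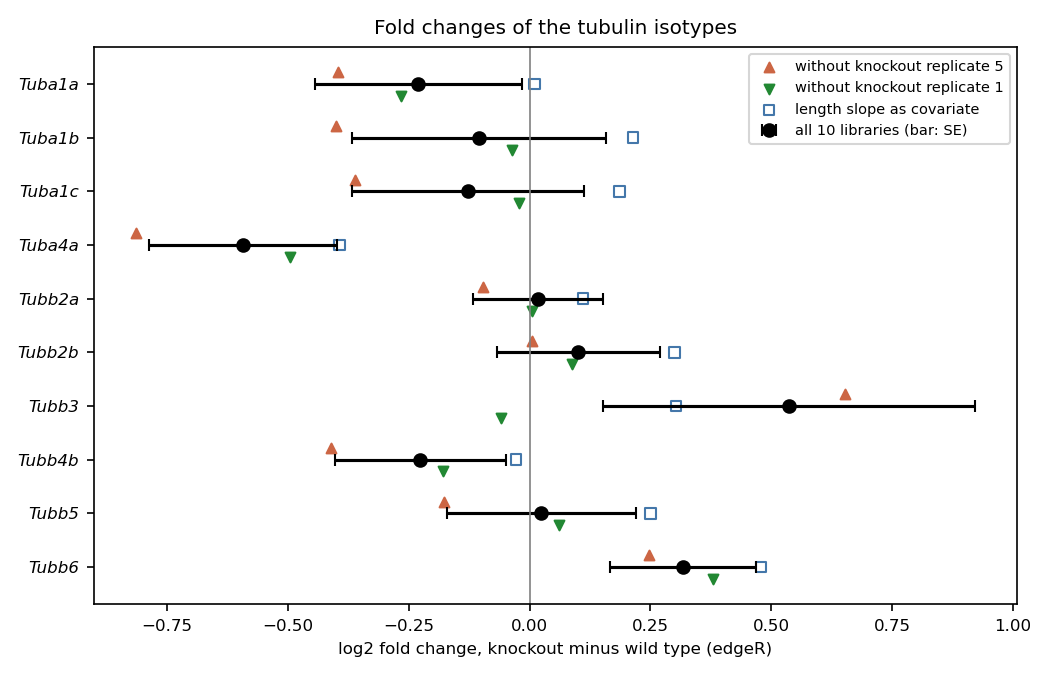
Log2 fold change of each isotype, knockout minus wild type (horizontal axis), with its SE from all 10 libraries, without knockout replicate 5, without knockout replicate 1, and with the length slope of each library as a covariate. Tuba4a and Tubb4b stay below 0 and Tubb6 and Tubb2b above 0 in all 4 fits, with Tubb2b at 0.005 without knockout replicate 5. Tubb3 is at -0.06 without knockout replicate 1, and the covariate moves the 3 chromosome 15 alpha genes to 0.01 or above.

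A share within the family does not depend on library size, and in the beta family that of Tubb4b was lower in every knockout library than in any of wild type. Tubb4b made up 17.7, 16.4, 15.8, 19.0 and 18.2% of beta tubulin per kilobase in wild-type replicates 1 to 5 and 13.2, 13.6, 13.7, 14.3 and 15.3% in knockout replicates 1 to 5. The 5 values of each genotype did not overlap, knockout replicate 5 included. The mean share was 17.4 ± 1.32% in wild type and 14.0 ± 0.81% in knockout (SD, n = 5 each), a difference of -3.41 percentage points. Of the 10 shares this was the 1 without overlap, or 10.0%; that figure only restates the count, and how often a share fails to overlap otherwise was not measured. Shares were not tested, since the members of a family fix each other's shares. Markers of ciliated epithelium, a cell type rich in this isotype, were low: Dnah5 was at 0 and Foxj1 had at most 10 counts in any library, but Ccdc39 (0.80 to 3.39 CPM) and Tekt2 (1.27 to 3.59 CPM) were above the floor in every library, and 4 of the 10 markers had enough reads to be tested, all with a log2 fold change below 0 (median -0.49). Their summed level was 9.88 to 11.4 CPM in wild type and 4.72 to 10.47 CPM in knockout, with knockout replicates 1 to 4 below every wild-type library, and its part in the Tubb4b share was not tested. Mesothelial markers had a log2 fold change below 0 for 9 of 9 tested genes (median -0.91), with summed levels of 122 to 661 CPM in wild type and 96.6 to 314 CPM in knockout, and their part in the share was not tested either. Also below 0 were 9 of 10 leukocyte markers (median -0.27) and 3 of 4 tested markers of other epithelium (median -0.56). Above 0 were 6 of 10 fibroblast, 8 of 9 smooth muscle, 5 of 7 endothelial and 1 of 2 neuronal markers. The parts of these lists in the share were not tested.

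The share of Tubb6 was higher on average in knockout, with overlap. It was 23.2, 23.5, 24.9, 23.2 and 20.4% in wild-type replicates 1 to 5 and 23.9, 32.1, 30.2, 28.9 and 23.7% in knockout replicates 1 to 5. Knockout replicates 2, 3 and 4 lay above every wild-type library, and replicates 1 and 5 inside the wild-type range. Tubb5 held the largest share in each library, at 43.8 ± 1.91% in wild type and 41.9 ± 3.10% in knockout (SD, n = 5 each). The 7.08% share of Tubb3 in knockout replicate 1 compares with 1.33 to 2.63% in wild type. With Tubb3 left out of the family the share of Tubb4b still did not overlap, at 16.1 to 19.4% against 13.8 to 15.5%. The same held without length correction (13.0 to 16.1% against 11.2 to 12.5%) and with the lengths of the reference transcripts (17.7 to 21.4% against 15.0 to 17.1%).

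Alpha tubulin was mostly Tuba1b and Tuba1a, at 45.97 ± 1.84% and 43.3 ± 2.88% of the family in wild type and 47.6 ± 4.44% and 42.4 ± 5.17% in knockout (SD, n = 5 each). Tuba1c came to 7.47 ± 1.14% and 7.72 ± 1.06%. The share of Tuba4a was 3.22 ± 0.65% in wild type and 2.35 ± 0.41% in knockout, below the wild-type average in 5 of 5 knockout libraries, though the ranges (2.30 to 3.80% and 1.83 to 2.88%) overlapped.

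**Figure D3:**
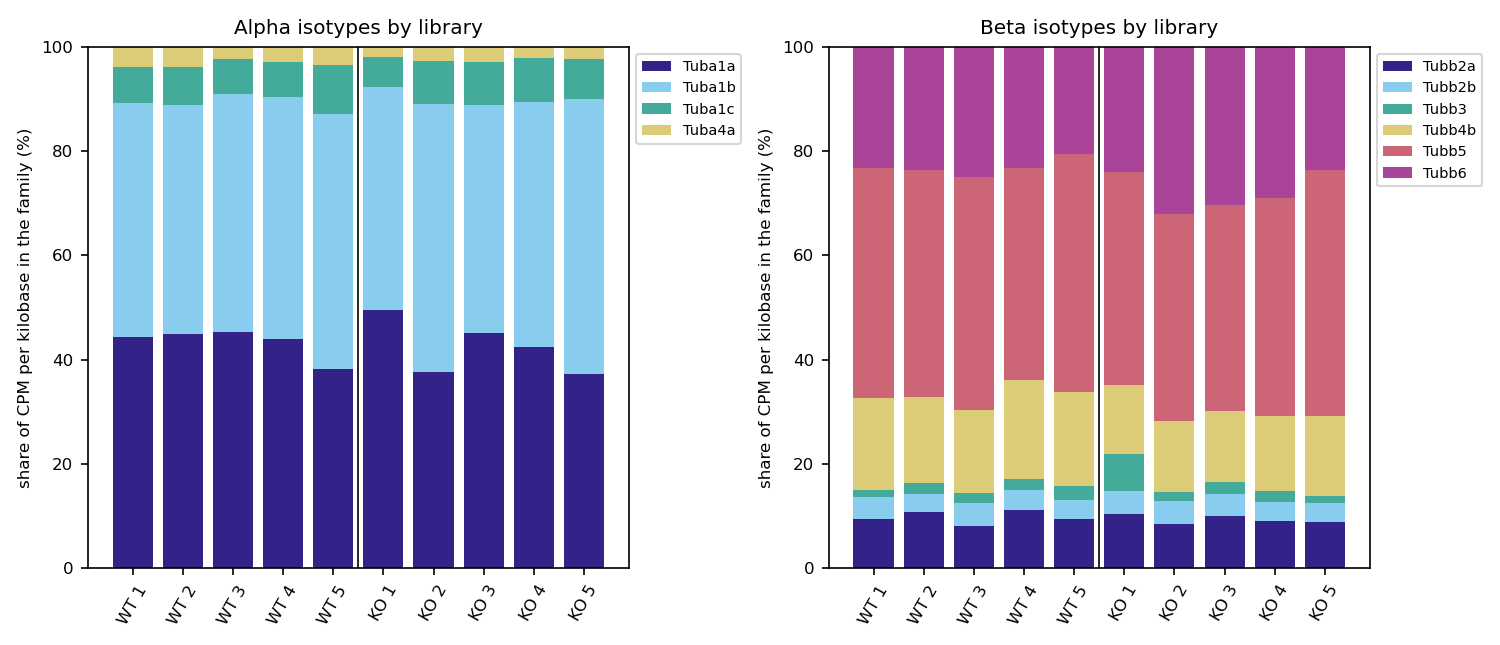
Share of each isotype in the alpha (left) and beta (right) family, in percent of the family's CPM per kilobase (vertical axis), for each of the 10 libraries. The Tubb4b band is narrower in each knockout library (13.2 to 15.3%) than in each wild-type library (15.8 to 19.0%), and the Tubb3 band is widest in knockout replicate 1 (7.08%).

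Much of the spread within a genotype was shared by the isotypes. Knockout replicate 5 was the highest knockout library for 9 of the 10 genes, and wild-type replicate 2 the lowest wild-type library for 9 of 10. The summed level of the 10 genes was 2882, 2311, 4022, 3058 and 3213 CPM in wild-type replicates 1 to 5 and 2752, 2638, 2509, 2731 and 4458 CPM in knockout replicates 1 to 5. The libraries with the highest sums, knockout replicate 5 and wild-type replicate 3, were also those with the lowest length slopes (-0.16 and -0.15). The group means of the sum were 3097 ± 619 and 3018 ± 811 CPM (SD, n = 5 each). In bulk RNA, a change in the number of cells of one type and a change in RNA per cell cannot be told apart.

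Per kilobase, beta tubulin was higher relative to alpha tubulin in 4 of the 5 knockout libraries than in every library of wild type. The ratio of beta to alpha was 1.11, 1.29, 0.99, 1.15 and 1.12 in wild-type replicates 1 to 5 and 1.33, 1.40, 1.54, 1.38 and 1.13 in knockout replicates 1 to 5. Knockout replicate 5 lay inside the wild-type range. The means were 1.13 ± 0.11 and 1.35 ± 0.15 (SD, n = 5 each). Those 4 knockout libraries also had length slopes of 0.06 to 0.14, and the wild-type library with the highest ratio, replicate 2, had the highest wild-type slope (0.09). The part of the length slope in the ratio was not tested, nor was that of reads matching several of the alpha genes.

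**Figure D4:**
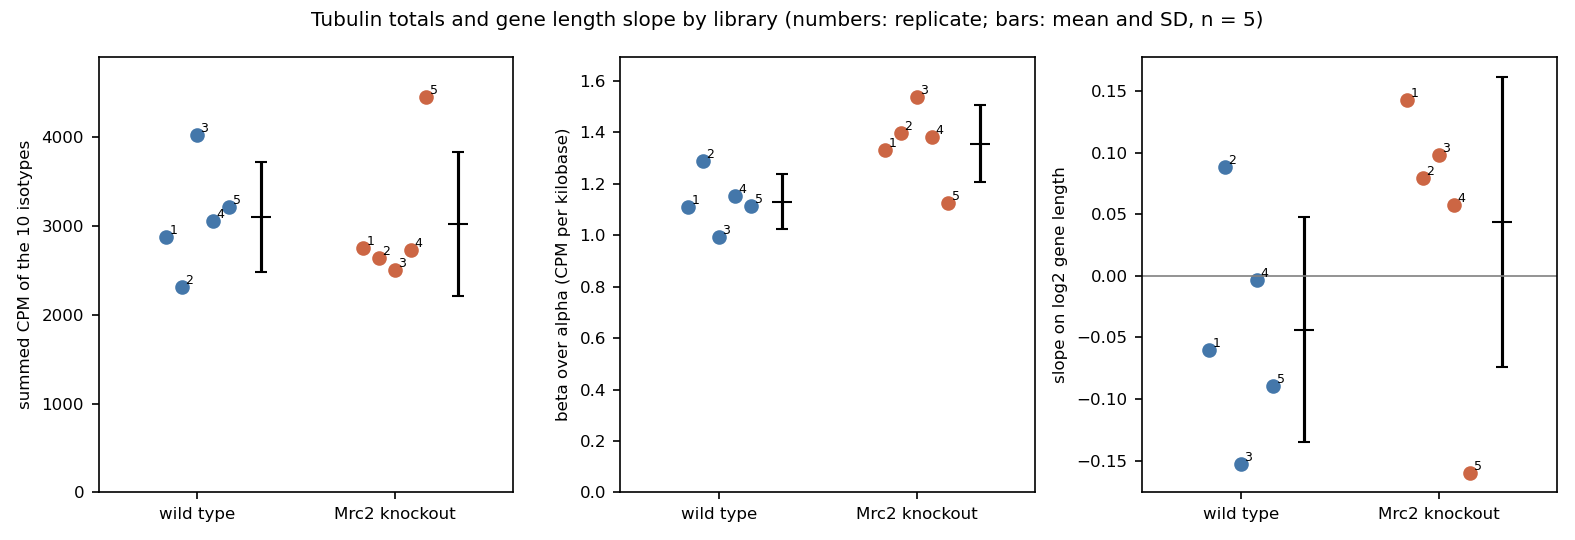
Summed CPM of the 10 isotypes (left), ratio of beta to alpha tubulin in CPM per kilobase (middle) and slope of log2 CPM on log2 gene length (right) for 5 wild-type and 5 knockout libraries, with replicate numbers and the mean and SD of each group. Knockout replicate 5 is highest in the sum (4458 CPM) and lowest in the slope (-0.16), and knockout replicates 1 to 4 lie above all wild-type libraries in the ratio.

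Other tubulins were scarce. Tuba3a and Tubal3 had 0 counts, and Tubb1 and Tuba3b 1 count each, over the 10 libraries. Tubb4a, the class IVa isotype of brain, was at 20.5 ± 8.56 CPM in the wild-type group against 12.8 ± 2.94 CPM in the knockout group (SD over 5 libraries each; log2 fold change -0.68 ± 0.27 SE, adjusted p = 0.348 by edgeR) and lay below the wild-type average in 5 of 5 knockout libraries. Tuba8 was at 2.03 ± 0.79 and 1.19 ± 0.53 CPM (log2 fold change -0.77 ± 0.39 SE, adjusted p = 0.408 by edgeR; n = 5 each).

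Genes that fold tubulin lay mostly a little below wild type in knockout, and none passed the test. Of 14 genes of prefoldin and the CCT chaperonin 12 had a log2 fold change below 0 (median -0.17). Of 7 tubulin cofactor genes 7 did (median -0.09), and of all tested genes 51.6% did. In either list 0 were called by edgeR (0.0139% of all genes) and 0 by DESeq2 (1.69% of all genes with an adjusted p). With an unadjusted p under 0.05 by edgeR there were 0 (13.3% of all genes). The CCT subunit gene Tcp1 was at 294 ± 49.2 CPM in the wild-type group against 248 ± 46.7 CPM in the knockout group, and Cct5 at 310 ± 66.6 and 249 ± 75.1 CPM (SD, n = 5 each). The summed chaperonin and prefoldin level was highest in wild-type replicate 3 (3179 CPM) and knockout replicate 5 (3025 CPM), the libraries with the highest tubulin sums. Arl2, a small GTPase that works with the cofactors, had a log2 fold change of -0.35 (standard error 0.20; in edgeR, adjusted p = 0.449).

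In the list of tubulin mRNA decay, Ttc5 had a log2 fold change of -0.21 (standard error 0.14; in edgeR, adjusted p = 0.502), and Scaper, which links TTC5 to the CCR4-NOT deadenylase in human cells, 0.05 (SE 0.14, adjusted p = 0.880). Cnot1, the scaffold of that deadenylase, had 0.45 (SE 0.18, edgeR unadjusted p = 0.0277, adjusted p = 0.349) and was above the wild-type average in 4 of 5 knockout libraries.

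Of 21 genes of tubulin-modifying enzymes 12 were above and 9 below 0 (median 0.00). By edgeR 0 were called (0.0139% of all genes), and 2 had an unadjusted p under 0.05 (13.3% of all genes). These were 4931428F04Rik, which encodes the detyrosinating protease later named Matcap1, at 2.69 ± 0.70 and 4.07 ± 0.88 CPM (log2 fold change 0.59, edgeR adjusted p = 0.343; SD, n = 5 each), and the deglutamylase gene Agbl2, with a log2 fold change of 0.47 (edgeR adjusted p = 0.375). Ttll12, of the tubulin tyrosine ligase-like family, lay below the wild-type average in 5 of 5 knockout libraries, at 75.2 ± 5.93 and 65.4 ± 4.70 CPM (edgeR adjusted p = 0.380; SD, n = 5 each).

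Genes of microtubule ends held the one gene of the microtubule lists that DESeq2 called. Clasp2, which stabilises growing plus ends, was at 39.7 ± 3.98 CPM in the wild-type group against 53.5 ± 4.91 CPM in the knockout group, with no overlap between the groups (SD over 5 libraries each; log2 fold change 0.43 ± 0.11 SE, adjusted p = 0.231 by edgeR, DESeq2 adjusted p = 0.0136). Ckap5, a microtubule polymerase, had a log2 fold change of 0.33 (standard error 0.12; in edgeR, adjusted p = 0.335), and Mapre3, which encodes the end-binding protein EB3, -0.40 (SE 0.12, edgeR adjusted p = 0.287). Of the 13 tested genes of this list 9 were above and 4 below 0 (median 0.07). By edgeR 0 were called (0.0139% of all genes), and by DESeq2 1, Clasp2 (1.69% of all genes with an adjusted p).

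The remaining lists were spread around small values. Over all tested genes edgeR called 0.0139%, and 48.4% were above 0. Of 19 tested structural microtubule-associated genes 15 were above 0 (median 0.14), with 0 called. Eml4 had the smallest p among them, at 21.5 ± 3.35 and 27.7 ± 3.95 CPM (log2 fold change 0.36, edgeR adjusted p = 0.343; SD, n = 5 each), and Map1b had a log2 fold change of 0.34 (edgeR adjusted p = 0.413). Of 12 genes of gamma, delta and epsilon tubulin and the nucleating ring complex 9 were above 0 (median 0.12), with 0 called; the ring subunit genes Tubgcp6 and Tubgcp4 had log2 fold changes of 0.51 and 0.64 (edgeR adjusted p of 0.404 and 0.411). Of 8 tested stathmin and severing enzyme genes 6 were above 0 (median 0.09), with 0 called, and Katnal1, a katanin subunit, had 0.34 (edgeR adjusted p = 0.367).

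Markers of cycling cells, which need tubulin for their spindles, had positive fold changes throughout. The log2 fold change was above 0 for 12 of 12, and its median was 0.52 against -0.04 for the 10 tubulin genes. By edgeR 0 were called (0.0139% of all genes), and 9 had an unadjusted p under 0.05 as higher in knockout (7.19% of all genes). DESeq2 called 5 (1.69% of all genes with an adjusted p). Ccnb1, the mitotic cyclin B1 gene, was at 20.5 ± 3.53 CPM in the wild-type group against 33.9 ± 4.18 CPM in the knockout group (SD over 5 libraries each; edgeR adjusted p = 0.143). The list was chosen with earlier results of these data known, so its counts are a description only. The difference between the lists was not tested.

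Genes outside the family tracked the abundant isotypes closely from library to library. Likeness was measured by Pearson's r of log2 CPM over all tested genes outside the 10, and since the genes were picked as the highest they carry no test. For Tuba1b the nearest were Mtg1, Josd2 and Chmp6 (r = 0.98 each). For Tubb5 they were Ilf2 (r = 0.98), Shf and Igsf8 (r = 0.97 each), and for the sum of the 10 genes Cks1b, Ilf2 and Bcl7c (r = 0.98 each). Their own log2 fold changes ran from -0.16 for Josd2 to 0.05 for Shf.

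Promoters are shown for Tubb4b, whose share was lower in knockout, and for Tubb5, the main beta isotype. RefSeq start sites (GRCm38.p6) gave a window of 250 bases before to 50 after the start for 8 of the 10 genes. Matches on either strand are in capitals: the CCAAT box (CCAAT), the GC box (GGGCGG), the TATA box (TATAAA) and the cell cycle homology region (TTTGAA).
Tubb4b, chr2:25224653-25224952, minus strand: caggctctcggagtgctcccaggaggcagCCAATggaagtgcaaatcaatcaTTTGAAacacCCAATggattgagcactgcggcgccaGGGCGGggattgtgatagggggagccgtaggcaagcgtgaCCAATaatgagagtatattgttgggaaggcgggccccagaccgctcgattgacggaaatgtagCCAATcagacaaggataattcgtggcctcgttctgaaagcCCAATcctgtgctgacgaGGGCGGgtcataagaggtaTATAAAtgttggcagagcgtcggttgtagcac
Tubb5, chr17:35838252-35838551, minus strand: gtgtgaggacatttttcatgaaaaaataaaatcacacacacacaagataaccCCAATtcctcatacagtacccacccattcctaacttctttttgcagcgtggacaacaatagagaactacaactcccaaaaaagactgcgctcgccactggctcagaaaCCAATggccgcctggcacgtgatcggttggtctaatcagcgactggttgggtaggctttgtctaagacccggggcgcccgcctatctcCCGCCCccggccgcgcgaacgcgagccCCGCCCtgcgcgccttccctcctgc
The Tubb4b window held 5 CCAAT boxes, 2 GC boxes, 1 TATA box and 1 TTTGAA, and the Tubb5 window 2 CCAAT boxes and 2 GC boxes. A CCAAT box was present in 5 of the 8 windows against 37.4% of all 32851 promoter windows, a GC box in 7 of 8 against 35.7%, a TATA box in 2 of 8 against 13.6% and TTTGAA in 1 of 8 against 17.9%. These are matches of letters only.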

How the data were processed

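The authors deposited raw read counts per Ensembl gene in 10 columns, 1 per library. Tools listed by the submitters' processing notes, with no role stated, are HTSeq 0.6.1, STAR 2.5 and DESeq2 2, with the build mm10; annotation release and strand setting were not found in the sources used here. Coordinates are the table's; 9 of the 10 members had the same coordinates in GENCODE M21. Members and gene lists were chosen with earlier results of these data known. The named genes were the members, Mrc2, up to 4 genes of smallest p in each list and the genes nearest in pattern; Stk16 was added after its overlap was seen.

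Genes were filtered with filterByExpr and tested in edgeR 4.0.16 under R 4.3.3 (quasi-likelihood F test, TMM scaling, no covariate), with Benjamini-Hochberg adjustment over 14360 genes and a threshold of 0.05. Each SE was derived from the fold change and its F statistic (size over root F). CPM are relative to TMM-scaled libraries, and a prior count of 2 entered log2 CPM. Levels per kilobase used the gene length in the table. The fit was also run on simulated counts, drawn independently for each gene and library. These held no shift shared by many genes of a library, so that run does not bear on such shifts. DESeq2 1.42.0, limma-voom (limma 3.58.1) and the alternatives of the closing section were also run. The libraries are distinct: between replicates, chi-square per degree of freedom was at least 17.5. Floors cover counting error only. Tail sequences of the other members are not reported here.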

Additional observations from a re-analysis of the deposited data

Results flagged for a closer look

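Within each genotype, the gap between an extreme library and its nearest neighbour was set against the range of the 5 libraries, for the level and the share of each isotype. Of 40 such sets 9 were past Dixon's 95% critical value (0.71), where chance flags about 1 in 20 and the sets are not independent. Knockout replicate 5 was set apart as the highest knockout library for Tuba1b (919 CPM), Tuba4a (78.3 CPM), Tubb4b (333 CPM) and Tubb5 (1640.1 CPM). Knockout replicate 1 was set apart for Tubb3, by its level (93.8 CPM) and by its share of beta tubulin (7.08%), and for the low share of Tuba1c in alpha tubulin (5.88%). Wild-type replicate 5 was set apart by a low share of Tuba1a (38.3%) and a high share of Tuba1c (9.48%); it also had the highest summed leukocyte markers (11927 CPM), and the part of those in the shares was not tested.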

How the results depend on the processing

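Of 200 log2 fold changes recomputed for the members, 179 kept their direction and side of the threshold, 18 changed sign and 3 passed the threshold. The members called numbered 0, but 0 to 1 when single libraries were left out (1, Tuba4a, without knockout replicate 5) and 2 (Tuba4a and Tubb4b) by DESeq2 without knockout replicate 5, a fit chosen after seeing the data. The genes called in all numbered 2; they were 243 by DESeq2, 2267 by DESeq2 without knockout replicate 5, 1 by limma-voom, 0 with the replicate block and 4 with the length slope as a covariate, and 1 to 203 when single libraries were left out. The members called stayed at 0 with the replicate block. The labels do not say that its numbers pair the samples. Same-numbered correlations ran from -0.24 to 0.38, with 1 of 5 wild-type libraries nearest to its own number, too few values to settle it. With the length slope as a covariate the sign turned for Tuba1a (0.011), Tuba1b (0.21) and Tuba1c (0.19), with total counts only for Tubb2a (-0.018) and Tubb5 (-0.0069), and by DESeq2 without knockout replicate 5 for Tubb2a (-0.089) and Tubb5 (-0.17). Leaving out single libraries gave -0.40 to 0.037 for Tuba1b, -0.096 to 0.078 for Tubb2a, -0.012 to 0.24 for Tubb2b, -0.059 to 0.68 for Tubb3 and -0.18 to 0.12 for Tubb5. The cause was not tested. Recomputed differences in share moved by less than the spread between libraries in 119 cases and by more in 1 (Tuba4a without length correction, -1.63 percentage points). Moves within that spread included changes of sign. The Tuba1a difference turned to 0.23 without knockout replicate 2 and 0.31 without knockout replicate 5, and that of Tubb3 to -0.14 without knockout replicate 1. With 5 libraries a group, a gene with a spread like that of Tubb5 (SD 191 to 315 CPM) allows no statement on small changes.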
